A study of Mus musculus with 35 samples.

Results

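Receptors, co-receptor and SMAD proteins of the bone morphogenetic protein (BMP) pathway were followed in macrophages sorted from mouse liver. The 10 genes were chosen by symbol and role in the pathway, with earlier results of these data known. They are the receptors Bmpr1a, Bmpr2, Acvrl1 and Acvr2a, the co-receptor Eng, the signal carriers Smad1 and Smad4, and the inhibitors Smad6, Smad7 and Skil. All 10 of the 54735 gene symbols counted were found, and all 10 passed the filter on low counts that kept 13421 genes.

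The macrophages came from C57Bl/6J mice, males only in the diet experiments, placed on a standard diet (SD) or a Western diet (WD) from 5 weeks of age. Fatty liver disease was modelled by the WD, a fatty chow with added cholesterol, given along with sugars in the water. Resident Kupffer cells (ResKCs, sorted as CLEC4F+TIM4+) were taken after 12 weeks of SD (7 samples) or WD (5 samples) and after 24 weeks of SD (6 samples) or WD (6 samples). Livers after 24 weeks of WD also gave monocyte-derived Kupffer cells (moKCs, CLEC4F+TIM4-, 5 samples) and CLEC4F- macs (CLEC4F-TIM4-, 6 samples). No SD counterpart of these recruited cells was analysed here. The 5 samples of the WD group at 12 weeks carry a diet tag naming the standard diet, and they were grouped by their titles and descriptions.

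BMP ligands bring together type II receptors (BMPR2, ACVR2A) and type I receptors (BMPR1A, ACVRL1, also called ALK1, and ACVR1). The type I receptor phosphorylates SMAD1, SMAD5 and SMAD9, which enter the nucleus with SMAD4 and switch on genes such as Id1, Id2, Id3, Smad6 and Smad7. SMAD6 and SMAD7 then hold the pathway back, and SKIL (SnoN) represses SMAD-driven transcription. In the liver, sinusoidal endothelial cells make BMP ligands and carry endoglin (Eng), a co-receptor for BMP9, and stellate cells make BMP9 (Gdf2).

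Levels are given as CPM, the count of a gene scaled to a common library total with TMM factors, from totals of 11568590 to 15163845 counts per sample. By these totals alone, without the TMM factors, a count of 3 was worth 0.198 to 0.259 CPM. A gene was called where edgeR's quasi-likelihood test gave an adjusted p under 0.05 over all 13421 genes. For lists of marker genes, ranges are summed CPM, while correlations and covariates used a score, the mean log2 CPM of the list. The study counts its samples of a population as animals, and the sources used here do not say whether samples of different populations came from the same mice. Fewer cells of a type and less RNA per cell cannot be told apart in such bulk samples.

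The sort was checked first. Timd4, which encodes TIM4, averaged 732 CPM in WD ResKCs, whereas the moKC mean was 12.5 CPM and the CLEC4F- mean 8.24 CPM. Clec4f in moKCs stood at 78.0% of its WD ResKC level. In CLEC4F- macs it stood at 13.6%, an average of 1718 CPM, so RNA of this defining marker was not absent there. That average rests in part on replicate 4 of the CLEC4F- macs, at 5488 CPM against 294 to 1539 CPM in the other 5. The same replicate was the highest of its group in Bmpr1a and Acvrl1, and without it every member called against CLEC4F- macs, from either side, still passed. Replicate 1 of the moKCs stood apart from the other 4, with Gdf3 at 4.97 CPM against 97.0 to 138 CPM in the others. It also had the highest sums in its group over 15 endothelial marker genes (2885 CPM) and over 10 immediate-early and heat-shock genes (10587 CPM). Markers of monocytes, B cells, and T and NK cells were higher in CLEC4F- macs than in WD ResKCs. Summed over 5 monocyte markers they ran from 358 to 1362 CPM against 87.1 to 147 CPM (4 of 5 fitted higher, 3 called), and over 4 B cell markers from 28.3 to 163 CPM against 9.87 to 28.4 CPM (4 of 4 called), with none at 0. Both of the T and NK cell markers tested, of 5 listed, were also called higher there, where 33.0% of all genes were called in either direction. General macrophage markers went the other way, with 4 of 5 called lower in CLEC4F- macs, as were 17.0% of all genes. Their mean sums were 8566 CPM in CLEC4F- macs and 16059 CPM in WD ResKCs. Of 5 neutrophil markers 3 were tested and 0 called, with a median WD ResKC minus CLEC4F- log2 difference of -0.20. The part of these cells in the differences from CLEC4F- macs was not tested.

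Of the 10 genes, 6 had a promoter sequence used here, from the RefSeq table of build GRCm38.p6, covering 250 bases before to 50 after the start. Acvrl1 and Skil had no usable entry, and Smad4 and Smad7 were left out of the motif search. The sequences of Bmpr1a, the gene with the widest gap between cell populations, and Smad6, a feedback target of the pathway, are shown with a SMAD-binding motif in capitals. GGCGCC, the GC-rich motif of BMP-responsive SMADs, lies in the Bmpr1a window at chr14:34502497-34502796 on the minus strand, its first base 198 bases before the start. GTCTAGAC, the palindrome bound by SMAD proteins, lies in the Smad6 window at chr9:64022010-64022309 on the minus strand, its first base 4 bases before the start.
Bmpr1a promoter: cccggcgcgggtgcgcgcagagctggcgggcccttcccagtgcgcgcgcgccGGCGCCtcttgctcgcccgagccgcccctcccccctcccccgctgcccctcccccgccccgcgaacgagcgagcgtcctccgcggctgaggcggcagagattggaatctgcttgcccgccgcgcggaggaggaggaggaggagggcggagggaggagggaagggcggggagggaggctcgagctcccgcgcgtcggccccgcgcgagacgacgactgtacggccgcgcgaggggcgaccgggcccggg
Smad6 promoter: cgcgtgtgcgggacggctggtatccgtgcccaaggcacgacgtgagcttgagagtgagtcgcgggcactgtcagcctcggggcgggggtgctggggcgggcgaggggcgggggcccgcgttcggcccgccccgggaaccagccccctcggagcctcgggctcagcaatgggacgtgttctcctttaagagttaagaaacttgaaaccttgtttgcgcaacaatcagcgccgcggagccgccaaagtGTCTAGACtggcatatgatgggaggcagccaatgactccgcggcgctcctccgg
Both motifs read the same on either strand. Of 32851 promoter windows of this length, 11.9% held GGCGCC and 0.213% held GTCTAGAC. The windows of Bmpr2 and of the target Id2 also held 1 GGCGCC each. Another motif, CAGACA, searched on both strands and held by 21.0% of all windows, was in none of the 6 members' windows.

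Among the type I receptors, Bmpr1a separated the resident from the recruited macrophages. This gene encodes ALK3, a receptor for BMP2, BMP4 and BMP6 (chr14:34410734-34503341, minus strand, GRCm38). In WD ResKCs at 24 weeks, replicates 1 to 6 held 33.3, 33.0, 39.98, 17.9, 37.3 and 32.1 CPM. The 5 moKC replicates held 1.68, 3.27, 3.00, 3.26 and 2.34 CPM. The 6 replicates of CLEC4F- macs held 1.73, 2.13, 3.43, 4.31, 2.02 and 3.26 CPM. Every ResKC sample was above every recruited sample, including replicate 4 of the ResKCs, the lowest of its group. The group means were 32.3 ± 7.66 (SD, n = 6), 2.71 ± 0.690 (SD, n = 5) and 2.81 ± 1.01 CPM (SD, n = 6). Raw counts per sample were 238 to 625 in all ResKCs, 26 to 46 in moKCs and 25 to 59 in CLEC4F- macs, so the low levels were still above the level of 3 counts.

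Bmpr1a was 11.9-fold higher in WD ResKCs than in moKCs, with a 95% interval of 8.68 to 16.4 (log2 fold change 3.58, SE 0.22, edgeR adjusted p = 2.2e-13). Over CLEC4F- macs it was 11.4-fold higher, with an interval of 8.53 to 15.3 (log2 fold change 3.51, SE 0.21, edgeR adjusted p = 1.7e-14). Both comparisons use the same 6 ResKC samples. Between moKCs and CLEC4F- macs the log2 difference was -0.06, with an interval of -0.52 to 0.40 (edgeR adjusted p = 0.913). The moKCs, in which Clec4f stood at 78.0% of its WD ResKC level, held 8.40% of the WD ResKC level of Bmpr1a, and CLEC4F- macs held 8.72%. Without moKC replicate 1 the log2 difference from moKCs was 3.44 (edgeR adjusted p = 4.1e-12).

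In the 24 ResKC samples of either diet and time, Bmpr1a lay between 17.9 and 49.3 CPM with a median of 31.5 CPM. Diet did not move it detectably, with a WD minus SD log2 difference of -0.03 at 24 weeks (95% interval -0.40 to 0.33) and 0.05 at 12 weeks (-0.32 to 0.41). It was 1 of 23 genes called in both ResKC comparisons at a log2 fold change over 3, among them Timd4, Marco, C2 and Cd163, chosen for naming after their values were seen. The genes closest to Bmpr1a across the 35 samples, also picked after values were seen, were C2 (Pearson r of log2 CPM 0.98), Snrpn (0.98) and Timd4 (0.97). Inside the groups those r values were 0.58, 0.54 and 0.22. Bmpr1a had r = 0.02 with the endothelial marker score (permutation p = 0.90) and r = -0.03 with the immediate-early score (permutation p = 0.86). Gm17110, which lies antisense to a Bmpr1a exon, reached at most 1.15 CPM.

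**Figure D1:**
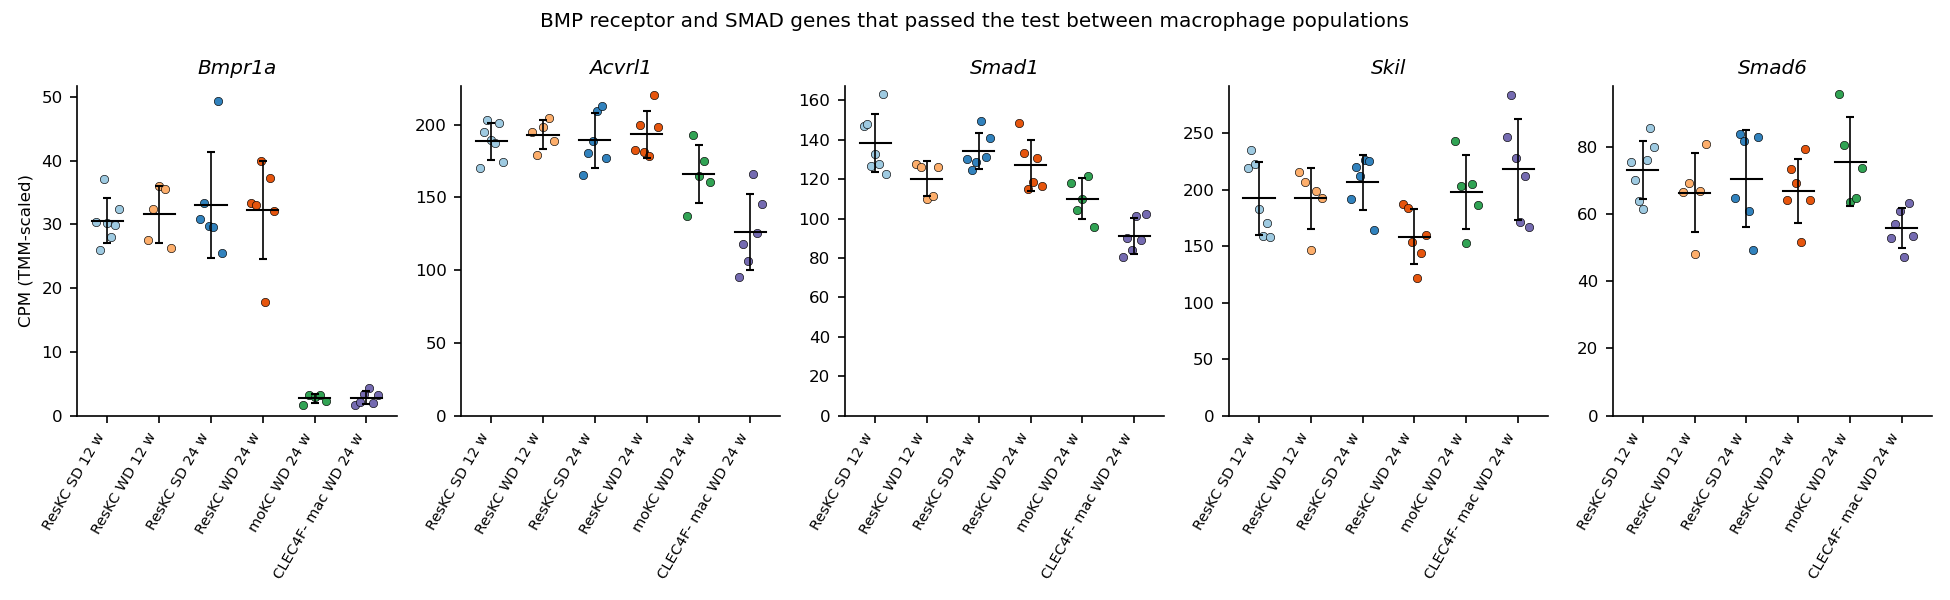
TMM-scaled CPM of Bmpr1a, Acvrl1, Smad1, Skil and Smad6, the genes called in at least 1 comparison, in each of 35 samples. Dots are samples, horizontal lines group means and bars 1 SD. Bmpr1a lies at 17.9 to 49.3 CPM in ResKCs and at 1.68 to 4.31 CPM in the recruited populations, with no sample in between.

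Acvrl1 (chr15:101128522-101145336, plus strand), encoding the receptor ALK1 for BMP9 and BMP10, formed a gradient over the 3 populations. WD ResKCs held 182, 200, 181, 178, 220 and 198 CPM in replicates 1 to 6. In moKCs the values were 138, 193, 164, 175 and 161 CPM. CLEC4F- macs held 95.6, 118, 106, 166, 126 and 145 CPM. All ResKC values were above all CLEC4F- values, while moKCs overlapped with both. Acvrl1 was 1.53-fold higher in WD ResKCs than in CLEC4F- macs (log2 fold change 0.62, 95% interval 0.42 to 0.81, edgeR adjusted p = 4.6e-06). In moKCs it was 1.32-fold higher than in CLEC4F- macs (log2 fold change 0.40, interval 0.19 to 0.60, edgeR adjusted p = 0.0047), and 0.46 on the log2 scale without moKC replicate 1 (adjusted p = 0.00197). In a fit of only the groups compared that call was lost (0.39, edgeR adjusted p = 0.0834). The ResKC minus moKC difference of 0.22 (interval 0.02 to 0.42) was not called (edgeR adjusted p = 0.261). Across diets the ResKC means lay between 189 and 193 CPM. The genes closest to Acvrl1 across the 35 samples were Mpzl1 (r = 0.93), Creg1 (0.92) and Il18bp (0.91).

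The type I receptors differed in level as well as in pattern. Per kilobase of exon, WD ResKCs held 45.3 CPM of Acvrl1, 5.08 CPM of Bmpr1a and 2.60 CPM of Acvr1. In moKCs the values per kilobase were 38.9, 0.427 and 3.03 CPM, and in CLEC4F- macs 29.6, 0.443 and 2.89 CPM. The order of Bmpr1a and Acvr1 was therefore opposite in resident and recruited cells, as a description of these levels. Acvr1 was called in no comparison, with group means of 12.2 to 14.8 CPM. Bmpr1b was listed at 0 in all 35 samples, below the 0.198 to 0.259 CPM that 3 counts would give without TMM factors.

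Neither type II receptor was called anywhere. Bmpr2 (chr1:59763400-59879014, plus strand), the main BMP type II receptor, held 19.4, 21.7, 31.8, 19.6, 11.9 and 18.7 CPM in WD ResKCs. The moKCs held 35.1, 27.0, 22.9, 15.6 and 14.6 CPM, and CLEC4F- macs 17.5, 17.7, 13.9, 18.9, 21.2 and 29.3 CPM. The 3 populations overlapped along most of this range. The WD ResKC minus moKC log2 difference was -0.17 (95% interval -0.62 to 0.28), and against CLEC4F- macs it was 0.06 (-0.38 to 0.49). Bmpr2 followed the endothelial marker score across the 35 samples (Pearson r = 0.60, permutation p = 0.00018, and Spearman rho = 0.66, permutation p = 3e-05). The relation held with group means removed (r = 0.56) and without the 2 samples farthest from the median (r = 0.66). The part of endothelial RNA in the Bmpr2 level was not tested.

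Acvr2a (chr2:48814109-48903269, plus strand), a type II receptor shared by activins and BMPs, was among the lowest of the 10 genes. SD ResKCs at 24 weeks held 7.09, 13.9, 19.1, 20.7, 11.8 and 19.1 CPM, and WD ResKCs 12.1, 7.44, 14.1, 10.5, 5.00 and 10.6 CPM. The ranges overlapped, with 3 SD samples above all WD samples. Its WD minus SD log2 difference of -0.62 (95% interval -1.17 to -0.06) did not pass (edgeR adjusted p = 0.155). Acvr2a had r = 0.47 and rho = 0.53 with the score of 10 immediate-early and heat-shock genes (permutation p = 0.0042 and 0.0012). Within groups r was 0.39 (permutation p = 0.033), which did not pass the adjustment over 32 relations (0.11), and without the 2 farthest samples it was 0.48. With that score as a covariate the diet difference was -0.20 (edgeR adjusted p = 0.787), and the part of those genes in it was not tested. Exons of Orc4, at up to 46.9 CPM, overlap Acvr2a on the opposite strand, and whether reads were counted by strand is not given in the sources used here.

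Eng (chr2:32646595-32682669, plus strand) varied more within groups than between them. WD ResKCs at 24 weeks held 75.6, 62.0, 105, 25.1, 47.7 and 65.3 CPM. SD ResKCs of the same age held 61.6, 92.5, 96.1, 94.8, 112 and 210 CPM. In moKCs Eng stood at 184, 166, 41.1, 72.0 and 76.9 CPM, and in CLEC4F- macs at 80.03, 92.2, 78.9, 59.7, 111 and 120 CPM. The coefficient of variation within a group ran from 24.7% to 58.3%. The WD minus SD log2 difference at 24 weeks was -0.81 (95% interval -1.59 to -0.03) and was not called (edgeR adjusted p = 0.186).

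This spread moved with endothelial genes. Over the 35 samples Eng and the score of 15 endothelial markers, which do not include Eng, had Pearson r = 0.94 and Spearman rho = 0.90 (permutation p = 1e-05 for each, the smallest that 100000 permutations can give). With group means removed r was 0.98, and without the 2 samples farthest from the median it was 0.92. Benjamini-Hochberg adjustment over the 32 relations computed left these permutation p-values at 4.6e-05. The closest genes to Eng were Esam (r = 0.97), Oit3 (0.97) and Adgrf5 (0.96). The endothelial sum ran from 1392 to 3159 CPM in SD ResKCs at 24 weeks and from 886 to 1778 CPM in WD ResKCs, with none of the 15 markers at 0. In that diet comparison 15 of 15 markers were fitted lower in WD, as were 6621 of all 13421 genes, with a median of -0.87. Of the markers 2 were called (13.3%, against 8.71% of all genes), Ehd3 (log2 fold change -1.11) and Dnase1l3 (-0.93). Of 10 hepatocyte markers 9 were fitted higher in WD and 1 was called, a share near that of all genes, with a median of 0.65 and sums of 970 to 2993 CPM against 463 to 1340 CPM on SD. With the hepatocyte score as a covariate Eng was called lower in WD (-1.20, edgeR adjusted p = 0.0257). Of the 2 T and NK cell markers tested 1 was called higher in WD, with sums of at most 2.91 CPM. With the endothelial score as a covariate, the WD minus SD difference of Eng was 0.08 (edgeR adjusted p = 0.583).

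Under the same covariate, Eng was lower in WD ResKCs than in CLEC4F- macs (log2 difference -0.46, edgeR adjusted p = 1.55e-05), a difference that was -0.51 and not called without it (adjusted p = 0.341). The list holds Stab2 and Cdh5, higher in WD ResKCs than in CLEC4F- macs by 1.54 and 2.30 on the log2 scale, and Fcgr2b, which differed by -2.23. A covariate from the 12 other markers, added after the data were seen, gave -0.30 for Eng (edgeR adjusted p = 0.00239). How much of the Eng signal came from endothelial RNA was not tested. Exons of Fpgs, at up to 24.9 CPM, overlap Eng on the opposite strand.

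**Figure D2:**
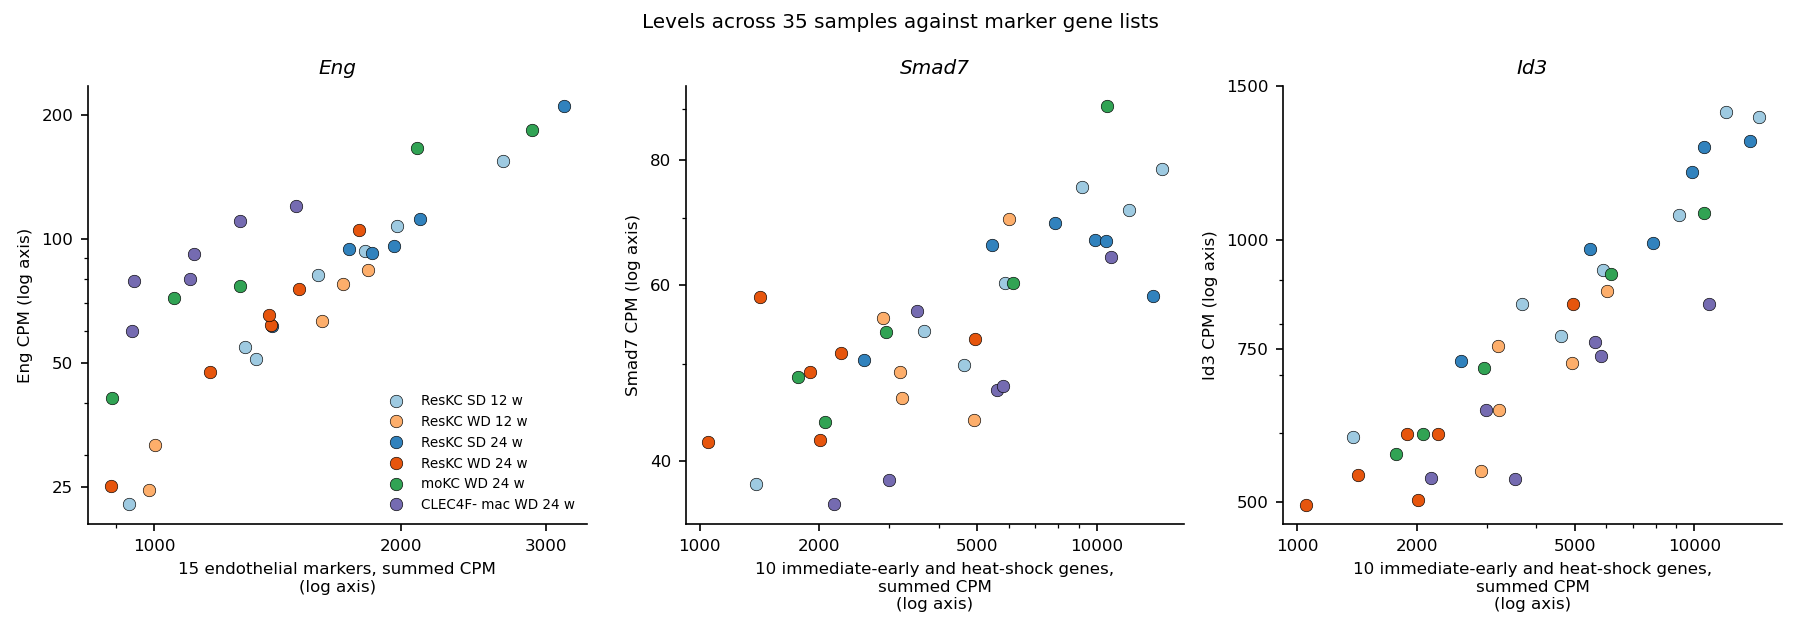
Eng against the summed CPM of 15 endothelial markers, and Smad7 and Id3 against the summed CPM of 10 immediate-early and heat-shock genes, 1 dot per sample over 35 samples on log axes. Eng rises with the endothelial genes and Smad7 and Id3 with the immediate-early genes, with samples of all 6 groups along each trend. The r values with the list scores, not with the summed CPM drawn, are 0.94 for Eng, 0.73 for Smad7 and 0.90 for Id3.

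Of the signal carriers, Smad1 (chr8:79338395-79399518, minus strand), the receptor-regulated SMAD of the BMP branch, was higher in ResKCs. WD ResKCs held 148, 133, 115, 119, 131 and 117 CPM. The moKCs held 118, 104, 110, 122 and 95.9 CPM, and CLEC4F- macs 80.4, 90.0, 83.9, 101, 89.4 and 102 CPM. The ResKC values were all above the CLEC4F- values, and the moKC values reached into both ranges. Smad1 was 1.39-fold higher in WD ResKCs than in CLEC4F- macs (log2 fold change 0.48, 95% interval 0.32 to 0.64, edgeR adjusted p = 1.15e-05). It was 1.21-fold higher in moKCs than in CLEC4F- macs (log2 fold change 0.27, interval 0.10 to 0.44, edgeR adjusted p = 0.0199). That smaller difference did not pass without moKC replicate 1 (adjusted p = 0.063) or 4 (0.067), or without CLEC4F- replicate 1 (0.088) or 3 (0.0505), nor with library size alone as the scaling (0.19, adjusted p = 0.0749) or in a fit of only the groups compared (0.26, adjusted p = 0.073). The ResKC minus moKC difference of 0.21 was not called (edgeR adjusted p = 0.181). At 12 weeks the WD and SD means were 120 ± 8.77 (SD, n = 5) and 138 ± 14.8 CPM (SD, n = 7), a log2 difference of -0.20 that was not called (edgeR adjusted p = 0.474).

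Smad4 (chr18:73639009-73703780, minus strand), the partner shared by all receptor-regulated SMADs, showed no detectable difference. Its 35 values lay between 69.8 and 115 CPM, with group means from 79.0 to 90.4 CPM. The WD minus SD difference at 24 weeks was 0.00 on the log2 scale, with an interval of -0.21 to 0.21. Per kilobase of exon, Smad1 (19.2 to 22.1 CPM in the ResKC groups) and Smad4 (21.3 to 24.4 CPM over all groups) were near one another. Smad5 and Smad9, which share the role of Smad1, stood at 2.94 to 4.28 and 0.0366 to 0.164 CPM per kilobase.

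**Figure D3:**
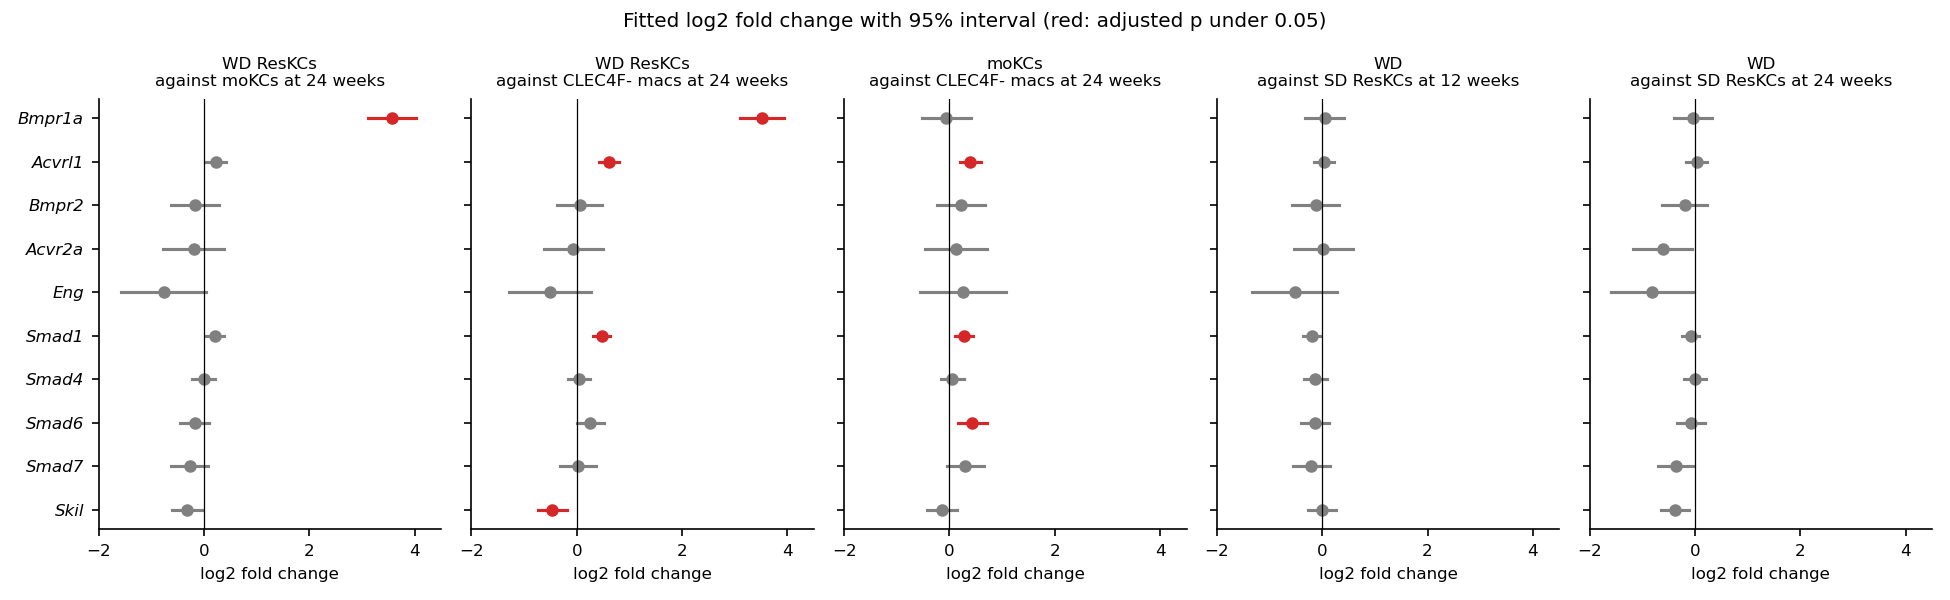
Fitted log2 fold changes with 95% intervals for the 10 genes in 5 comparisons (first group minus second). Red marks an edgeR adjusted p under 0.05. Bmpr1a stands at 3.58 and 3.51 in the comparisons of WD ResKCs with moKCs and CLEC4F- macs, and the other called differences lie between -0.46 and 0.62.

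Among the inhibitors, Smad6 (chr9:63953076-64022059, minus strand), which competes with SMAD1 at type I receptors and whose promoter is printed above, differed between the recruited populations. The moKCs held 95.6, 80.4, 63.6, 64.6 and 73.5 CPM, and CLEC4F- macs 52.8, 57.0, 60.9, 47.3, 63.3 and 53.5 CPM. Every moKC value was above every CLEC4F- value, though 63.6 and 63.3 CPM are almost level. Smad6 was 1.35-fold higher in moKCs (log2 fold change 0.44, 95% interval 0.17 to 0.71, edgeR adjusted p = 0.0201). Without moKC replicate 1, the sample that stood apart, the difference was 0.34 and did not pass (adjusted p = 0.104), nor did it without CLEC4F- replicate 1 (0.41, adjusted p = 0.0523) or with library size alone as the scaling (0.35, adjusted p = 0.0749). WD ResKCs held 64.1, 73.4, 69.1, 51.6, 79.3 and 64.0 CPM, and their log2 difference of 0.26 from CLEC4F- macs was not called (edgeR adjusted p = 0.117). The genes closest to Smad6 were Tfip11 (r = 0.71), Dnal4 (0.68) and Dele1 (0.65). With the endothelial score Smad6 had r = 0.38 and rho = 0.40 (permutation p = 0.025 and 0.016, adjusted 0.06 and 0.043). Within groups r was 0.36 (adjusted 0.13), and without the 2 farthest samples 0.32. Of 15 endothelial markers, 1 was fitted lower in moKCs than in CLEC4F- macs, with a median of 0.54. The part of endothelial RNA in the Smad6 difference was not tested.

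Smad7 (chr18:75367529-75395935, plus strand) blocks both the BMP and the TGF-beta branch. SD ResKCs at 24 weeks held 50.5, 65.7, 66.6, 66.5, 58.5 and 69.2 CPM, and WD ResKCs 49.0, 41.8, 58.4, 41.9, 53.0 and 51.3 CPM. Of the SD samples, 5 were above every WD sample, and the exception was replicate 1. The log2 difference of -0.35 (95% interval -0.69 to -0.01) was not called (edgeR adjusted p = 0.186), though it passed in a fit of only the groups compared (adjusted p = 0.0468). Smad7 followed the score of 10 immediate-early and heat-shock genes, which respond quickly to cell stress (Pearson r = 0.73, Spearman rho = 0.72, permutation p = 1e-05 for each, adjusted p = 4.6e-05). With group means removed r was 0.73, and without the 2 farthest samples 0.72. The summed CPM of these genes ran from 2586 to 13824 CPM in SD ResKCs at 24 weeks and from 1050 to 4945 CPM in WD ResKCs, with none of the 10 genes at 0. All 10 were fitted lower in WD and 7 were called (70.0%, against 8.71% of all genes). With the immediate-early score as a covariate, the WD minus SD difference of Smad7 was 0.07 (edgeR adjusted p = 0.841). The part of those genes in the Smad7 difference was not tested.

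Skil (chr3:31095058-31122577, plus strand), which encodes the repressor SnoN, was the only one of the 10 genes called lower in ResKCs than in a recruited population by the fit without covariates. WD ResKCs held 187, 183, 154, 122, 144 and 160 CPM, and CLEC4F- macs 246, 284, 228, 171, 212 and 167 CPM. The ranges overlapped, with 4 of 6 CLEC4F- samples above all ResKC samples. Skil in WD ResKCs was at 0.727 of the CLEC4F- level (log2 fold change -0.46, 95% interval -0.73 to -0.19, edgeR adjusted p = 0.00667). The moKCs held 243, 203, 152, 205 and 186 CPM, and the ResKC minus moKC difference of -0.32 was not called (edgeR adjusted p = 0.227).

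SD ResKCs at 24 weeks held 191, 220, 212, 226, 225 and 164 CPM of Skil, of which 5 were above every WD ResKC of that age. The diet difference of -0.38 (95% interval -0.65 to -0.11) missed the threshold (edgeR adjusted p = 0.0653). It passed with DESeq2 (adjusted p = 0.0454), with the replicate block (0.0245), in a fit of only the groups compared (0.043), and in edgeR without SD replicate 6 (0.0411) or WD replicate 1 (0.0496). With the immediate-early score as a covariate it was -0.20 (edgeR adjusted p = 0.496), and Skil had r = 0.53 and rho = 0.60 with that score (permutation p = 0.0012 and 0.00017). Within groups r was 0.41 (permutation p = 0.025), which did not pass the adjustment over 32 relations (0.088), and without the 2 farthest samples it was 0.50. With the naming scheme of the count files' headers as a covariate the diet difference was also -0.20 (edgeR adjusted p = 0.231). The part of either in the Skil difference was not tested. At 12 weeks the WD minus SD difference was 0.00, and the change of the diet effect from 12 to 24 weeks, -0.38, was not called (edgeR adjusted p = 0.36).

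In ResKCs at 12 weeks the 10 genes were read at the earlier stage of the diet. Smad1 held 147, 148, 127, 133, 128, 163 and 123 CPM on SD and 128, 126, 110, 111 and 126 CPM on WD. Of the SD samples, 5 were above every WD sample. Skil held 219, 235, 222, 183, 159, 170 and 158 CPM on SD and 216, 207, 146, 199 and 193 CPM on WD. Its ranges overlapped, with 3 SD samples above every WD sample and 1 WD sample below every SD sample. Those 3 were SD replicates 1 to 3, which share their header naming scheme with all 5 WD samples. SD replicates 4 to 7 carry the other scheme. Eng held 82.0, 51.1, 22.7, 54.6, 155, 93.8 and 108 CPM on SD and 63.1, 84.4, 77.8, 31.6 and 24.6 CPM on WD. The wide spread of Eng within groups was thus present at both times. Smad7 held 78.5, 71.3, 75.2, 53.9, 60.3, 49.9 and 37.9 CPM on SD and 55.6, 43.9, 46.2, 69.9 and 49.1 CPM on WD, again overlapping. SD replicates 1 to 3 were again above every WD sample, whereas Smad1 and Eng did not split this way. The immediate-early sum was 9161 to 14577 CPM in SD replicates 1 to 3 and 1384 to 5884 CPM in SD replicates 4 to 7. On WD it was 2901 to 6028 CPM. The part of the scheme in these values was not tested. The WD minus SD log2 differences at 12 weeks were -0.52 for Eng (95% interval -1.33 to 0.28), -0.20 for Smad7 (-0.55 to 0.14) and 0.02 for Acvr2a (-0.54 to 0.58).

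**Figure D4:**
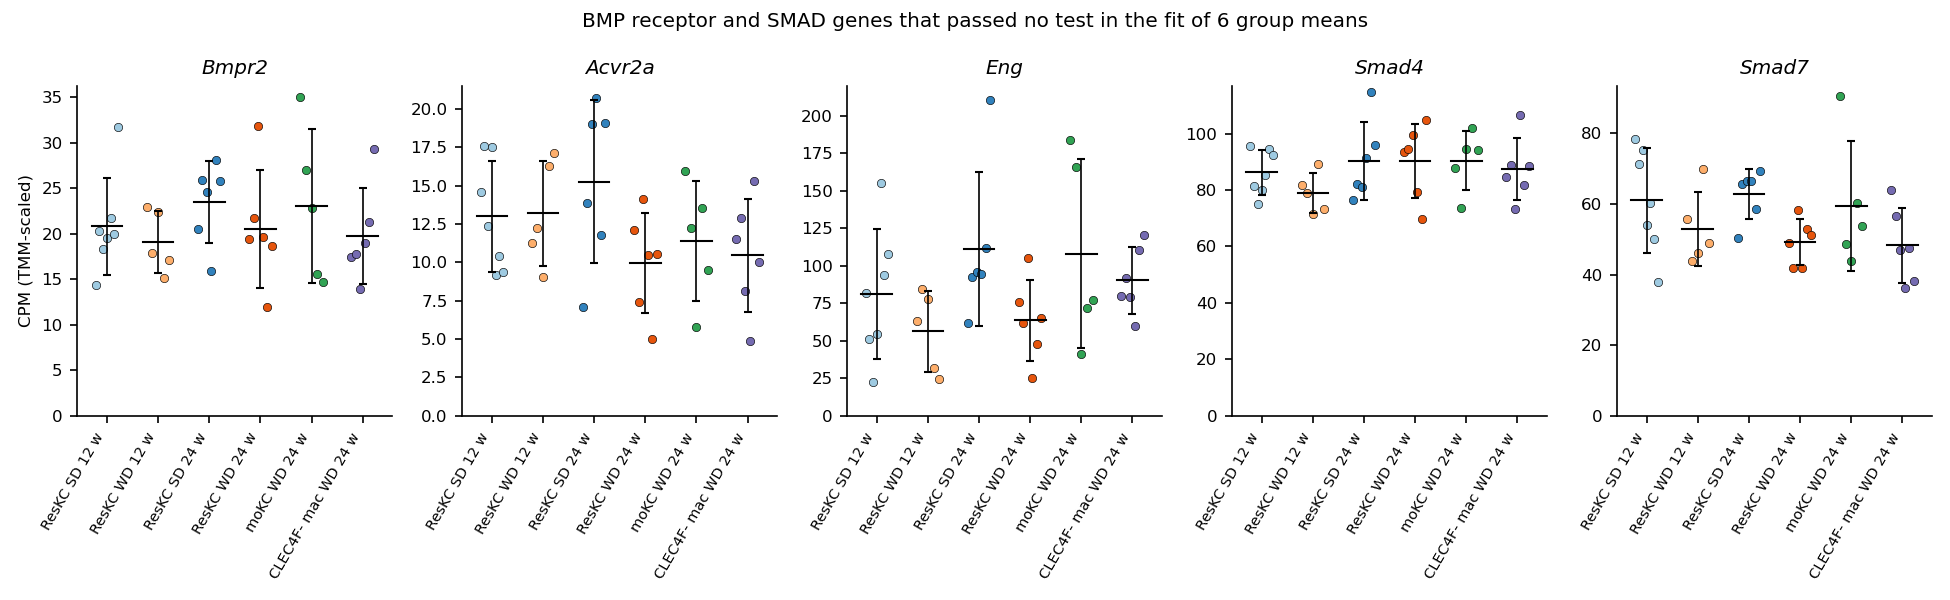
TMM-scaled CPM of Bmpr2, Acvr2a, Eng, Smad4 and Smad7 in each of 35 samples. Dots are samples, horizontal lines group means and bars 1 SD. The groups overlap in every panel, and Eng runs from 22.7 to 210 CPM over the 35 samples.

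Set against all genes, the 10 members were called at these rates. Between WD ResKCs and CLEC4F- macs 4 of 10 were called, Bmpr1a, Acvrl1 and Smad1 higher and Skil lower, where 33.0% of all genes were, 17.0% higher and 16.1% lower. The groups did not overlap for 3 of them, against 16.0% of all genes. Between WD ResKCs and moKCs 1 of 10, Bmpr1a, was called, against 2.99% of all genes and 2.0% higher in ResKCs, and its groups did not overlap, against 3.21%. Between moKCs and CLEC4F- macs 3 of 10, Acvrl1, Smad1 and Smad6, were called higher in moKCs, against 16.4% in either direction and 9.34% higher in moKCs. The groups did not overlap for 1 of them, Smad6, against 8.16% of all genes. The median log2 fold change of the 10 was 0.05 for ResKCs against CLEC4F- macs (-0.02 over all genes), -0.17 against moKCs (-0.02) and 0.24 for moKCs against CLEC4F- macs (0.01).

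For diet at 24 weeks edgeR called 0 of 10, against 8.71% of all genes, and 4 of 10 had an unadjusted p under 0.05 (Acvr2a, Eng, Smad7 and Skil), against 24.8%. DESeq2 called 1, Skil, and limma-voom called 0. Of the 10, 9 were fitted lower in WD, with a median of -0.14 (0.00 over all genes). For diet at 12 weeks edgeR, DESeq2 and limma-voom each called 0, against 0.0373% of all genes by edgeR, with 1 (Smad1) at an unadjusted p under 0.05, against 8.73%. The same 3 tools called 0 of 10 between 24 and 12 weeks in SD ResKCs (0.0% of all genes by edgeR) and in WD ResKCs (3.26%), and for the change of the diet effect with time (0.283%). In none of these did edgeR give a member an unadjusted p under 0.05, against 9.0%, 18.8% and 14.1% of all genes.

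The wider pathway was read from a list of 73 genes, 53 of which were tested. Its most direct readout is the ID family, transcriptional inhibitors driven by BMP receptors. Id1 in SD ResKCs at 24 weeks held 46.9, 53.0, 67.2, 156, 155 and 98.1 CPM, and in WD ResKCs 40.3, 23.4, 34.1, 38.4, 70.0 and 37.8 CPM. Id3 held 726, 974, 1196, 1275, 1297 and 992 CPM on SD and 598, 497, 537, 503, 843 and 598 CPM on WD. For both genes the SD and WD ranges overlapped, through WD replicate 5. Id1 (log2 fold change -1.24, edgeR adjusted p = 0.0334), Id2 (-0.66, 0.0214) and Id3 (-0.85, 0.00449) were all called lower in WD ResKCs at 24 weeks. The Id2 and Id3 calls held when each sample was left out in turn. The Id1 call was lost in 7 of 12 such fits, without SD replicate 4 or 5 or WD replicate 1, 2, 3, 4 or 6 (adjusted p 0.0546 to 0.0912).

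The ID genes also followed the immediate-early score, with r of 0.90 for Id1 (rho 0.91, within groups 0.86), 0.81 for Id2 (0.84, 0.80) and 0.90 for Id3 (0.89, 0.94), each with permutation p = 1e-05. Without the 2 farthest samples r was 0.89 for Id1 and 0.88 for Id3. With that score as a covariate the diet differences were -0.10 for Id1, -0.13 for Id2 and -0.25 for Id3 (edgeR adjusted p = 0.861, 0.651 and 0.0824). With the naming scheme as a covariate Id1 (adjusted p = 0.135) and Id2 (0.0681) did not pass and Id3 did (0.0227). Between WD ResKCs and CLEC4F- macs, Id2 was lower in ResKCs (log2 fold change -0.77), where 10 of 10 immediate-early genes were fitted lower and 3 were called (30.0%, near the 33.0% of all genes). The part of the immediate-early genes in these differences was not tested.

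**Figure D5:**
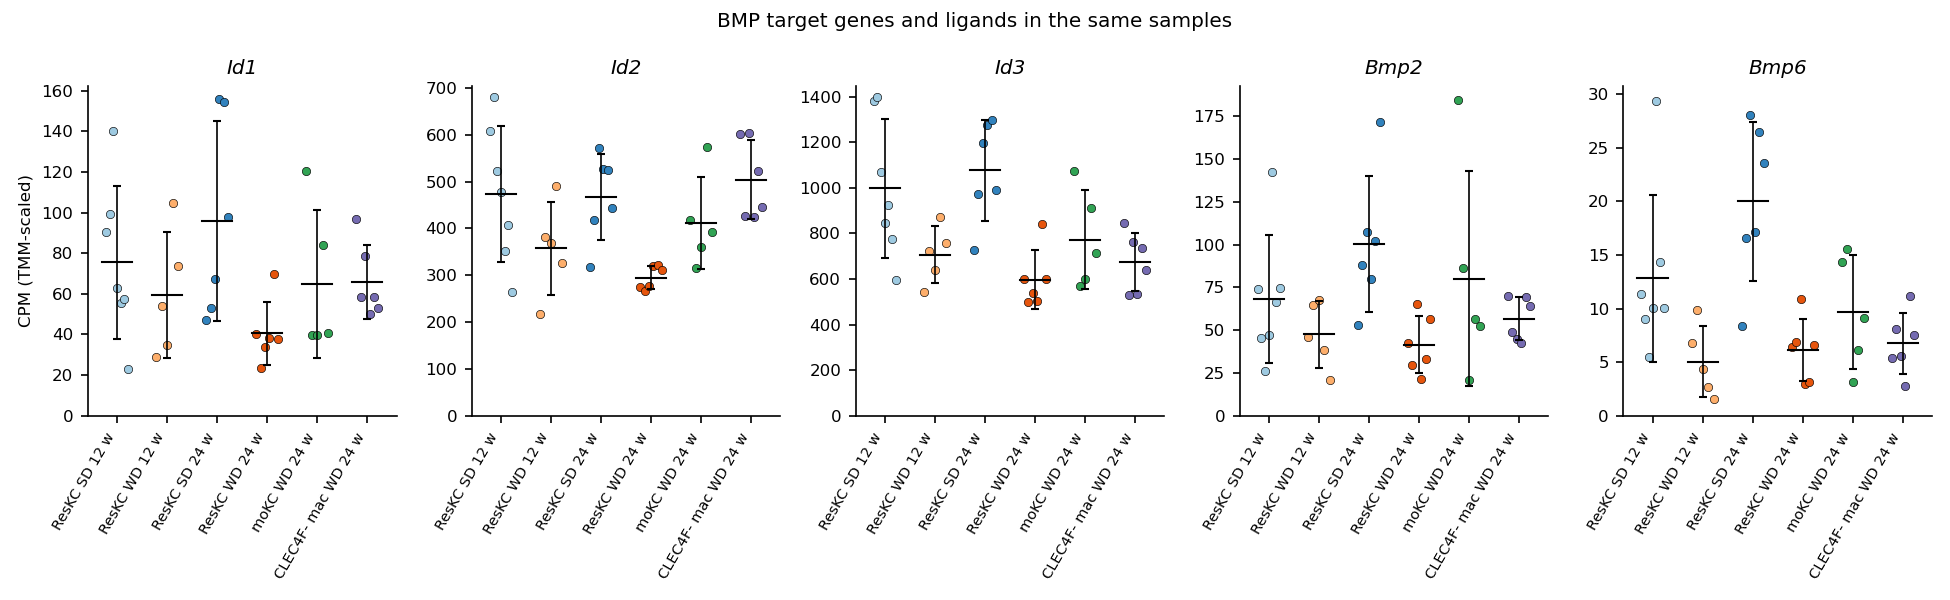
TMM-scaled CPM of the BMP targets Id1, Id2 and Id3 and the ligands Bmp2 and Bmp6 in each of 35 samples. Dots are samples, horizontal lines group means and bars 1 SD. At 24 weeks the WD ResKC mean is below the SD ResKC mean in all 5 panels, for Id3 596 against 1077 CPM.

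For diet at 24 weeks 13 of 53 tested genes of the list were called (24.5%), 6 higher and 7 lower in WD ResKCs. Over all genes 8.71% were called, 650 higher and 519 lower. Of the 15 ligands tested 5 were called (33.3%), 2 higher and 3 lower. Bmp2 held 53.0, 88.3, 107, 79.7, 102 and 172 CPM in SD ResKCs and 42.4, 29.9, 65.1, 21.4, 32.9 and 56.3 CPM in WD ResKCs. It was lower by a log2 fold change of -1.28 (edgeR adjusted p = 0.0327), as were Bmp6 (-1.70, 0.0114) and Gdf2 (-1.82, 0.0167), all 3 named after their values were seen. With a sample left out the Bmp2 call held in 7 of 12 fits and the Bmp6 call in 12 of 12. The Gdf2 call held in 11 of 12 and was lost without SD replicate 6 (adjusted p = 0.0506). Bmp2 and Bmp6 followed the endothelial score, with r of 0.92 and 0.82 (rho 0.89 and 0.85, permutation p = 1e-05 for each), and within groups 0.92 and 0.85. Without the 2 farthest samples r was 0.91 and 0.85. With the endothelial score as a covariate the differences were -0.45 for Bmp2, -0.91 for Bmp6 and -1.57 for Gdf2 (edgeR adjusted p = 0.0864, 0.0177 and 0.0387). With the immediate-early score as a covariate they were -0.95, -1.57 and -1.29, and none passed (edgeR adjusted p = 0.251 for Bmp2, 0.096 for Bmp6 and 0.187 for Gdf2). With the naming scheme as a covariate Bmp2 did not pass (-1.19, adjusted p = 0.0711). Gdf2 had r = 0.33 and rho = 0.26 with the endothelial score (permutation p = 0.05 and 0.13, adjusted 0.11 and 0.26), and r was 0.18 within groups and 0.24 without the 2 farthest samples. Of 9 markers of stellate cells, 8 were fitted lower in WD ResKCs at 24 weeks and 1 was called, with a median of -0.47. With the immediate-early score Gdf2 had r = 0.47 and rho = 0.44 (permutation p = 0.0042 and 0.0085, adjusted 0.012 and 0.025), within groups 0.30 (adjusted 0.19) and without the 2 farthest samples 0.45. Bmp2 had r = 0.40 and rho = 0.39 with it (permutation p = 0.017 and 0.022, adjusted 0.046 and 0.055), within groups 0.19 (adjusted 0.58) and without the 2 farthest 0.36. For Bmp6 r was 0.34 and rho 0.30 (permutation p = 0.048 and 0.076, adjusted 0.11 and 0.17), within groups 0.07 and without the 2 farthest 0.26. With the hepatocyte score as a covariate the diet differences were -1.66 for Bmp2, -1.997 for Bmp6 and -2.12 for Gdf2, and all 3 passed (edgeR adjusted p = 0.00292, 0.00246 and 0.00503). The part of endothelial, stellate, hepatocyte or immediate-early RNA in these ligands was not tested.

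Higher in WD ResKCs at 24 weeks were Gdf3, a TGF-beta family ligand (log2 fold change 3.02, edgeR adjusted p = 0.000767), Tgfb2 (3.21, 0.00888), and Ltbp1 (2.75, 0.0201) and Ltbp3 (2.17, 0.0208), which bind latent TGF-beta. Gdf3 held 3.30, 1.81, 2.86, 2.85, 4.34 and 1.23 CPM on SD and 8.78, 23.0, 7.21, 51.0, 7.89 and 34.6 CPM on WD, with no overlap. Limma-voom did not call Gdf3 (adjusted p = 0.187). Replicate 4 of the WD ResKCs, the sample lowest in Bmpr1a, was highest in Gdf3, in Ltbp1 (64.1 CPM) and in Tgfb2 (14.3 CPM). Without it Tgfb2 was at 2.35 (edgeR adjusted p = 0.0501) and Ltbp1 at 2.02 (0.0937). The Ltbp3 call was lost without that replicate (adjusted p = 0.058), WD replicate 6 (0.0729) or SD replicate 2 (0.0517) or 4 (0.0509). With the naming scheme as a covariate Tgfb2 (0.0716), Ltbp1 (0.118) and Ltbp3 (0.067) did not pass, nor did Ltbp3 with the immediate-early score (0.0737). At 12 weeks edgeR called 0 of 53 for diet, with 7 at an unadjusted p under 0.05, against 0.0373% and 8.73% of all genes.

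Between 24 and 12 weeks in WD ResKCs 3 of 53 were called (5.66%, against 3.26% of all genes), all higher at 24 weeks. They were Ltbp1 (log2 fold change 3.59, edgeR adjusted p = 0.0211), Gdf3 (2.31, 0.0231) and Tgfb2 (2.87, 0.0433). None of the 3 passed without replicate 4 of the WD ResKCs at 24 weeks, where Ltbp1 stood at 2.85 (0.0611), Gdf3 at 1.87 (0.0654) and Tgfb2 at 2.02 (0.159). None passed with limma-voom or with the naming scheme as a covariate either. The Tgfb2 call held in 3 of 11 fits with a sample left out, and the Gdf3 call was also lost without WD replicate 3 or 5 at 12 weeks (adjusted p = 0.0539 and 0.066).

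Of the TGF-beta receptors, Tgfbr1 was highest in CLEC4F- macs. Tgfbr1 (ALK5), the TGF-beta type I receptor, held 241, 259, 199, 221, 191 and 258 CPM in WD ResKCs and 210, 387, 219, 352 and 288 CPM in moKCs. CLEC4F- macs held 574, 704, 534, 523, 616 and 471 CPM, above every sample of both other populations. The log2 fold change was -1.32 for WD ResKCs against CLEC4F- macs (edgeR adjusted p = 1.2e-09) and -0.97 for moKCs against CLEC4F- macs (4.0e-06). WD ResKCs and moKCs overlapped, and their difference of -0.35 was not called (edgeR adjusted p = 0.155). Tgfbr2 was slightly higher in WD ResKCs than in CLEC4F- macs, at a mean of 356 against 286 CPM (log2 fold change 0.31, edgeR adjusted p = 0.0038). Per kilobase of exon, Tgfbr1 ran from 29.0 to 87.3 CPM and Tgfbr2 from 34.97 to 49.9 CPM over the groups, well above Bmpr1a, Bmpr2 and Acvr2a. Acvrl1, at 29.6 to 45.3 CPM per kilobase, overlapped with both.

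In all, 22 of 53 genes of the list were called between WD ResKCs and CLEC4F- macs (41.5%), 7 higher and 15 lower in ResKCs, against 33.0% of all genes, 17.0% higher and 16.1% lower. The inhibitor Pmepa1, a TGF-beta target, was lower in ResKCs (log2 fold change -2.25), as were Gdf3 (-2.50) and Inhba (-2.23), the latter called in 4 of 12 fits with a sample left out. Between WD ResKCs and moKCs 2 of 53 were called (3.77%), both lower in ResKCs, a share near the 2.99% of all genes. These were Gdf3 (log2 fold change -2.04, edgeR adjusted p = 0.017) and Zfyve9, a SMAD anchor (-0.94, 0.03). Gdf3 did not pass without WD ResKC replicate 1 (0.0523) or moKC replicate 5 (0.0583), and Zfyve9 passed in 4 of 11 fits. Between moKCs and CLEC4F- macs 8 of 53 were called (15.1%), near the 16.4% of all genes, 2 higher and 6 lower in moKCs. They included Pmepa1 (-1.89) and the decoy receptor Bambi (-0.88), the latter in 7 of 11 fits, and Hey1 (0.98) in 9 of 11.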

How the data were processed

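RNA from sorted macrophages was made into TruSeq libraries and sequenced on a NextSeq500 (single reads of 75 bases). The authors mapped reads with HISAT2 2.2.0 to mm10 and deposited raw counts per gene from featureCounts 2.0.0, and the annotation and strand setting are not given in the sources used here. Here, a gene entered the tests when 5 or more samples exceeded 1 CPM (13421 genes), and 1 model of 6 group means over 35 samples was fitted with edgeR 4.0.16 in R 4.3.3 (TMM scaling, quasi-likelihood test, Benjamini-Hochberg adjustment over all genes). Log2 CPM used a prior count of 2. Positions came from GENCODE M21 (GRCm38). Levels per kilobase divide CPM by the length of all exons of a gene.

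The members and gene lists were chosen with earlier results of these data known. Named from the wider list were, per comparison, up to 4 called genes with the largest fold change, plus Id1, Id2, Id3, Tgfbr1, Tgfbr2 and Acvr1, and 1 gene that this rule names is not reported here. Closest genes were ranked by Pearson r, members excluded.

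Permutation tests of correlations were two-sided with 100000 permutations and adjusted over 32 relations. Alternatives were DESeq2 1.42.0, limma-voom (limma 3.58.1), no low-count filter, library size alone, robust dispersion, only the groups compared, a replicate block, a fold limit, 4 covariates (endothelial, hepatocyte and immediate-early scores and the naming scheme) and leaving out each sample. The fit was tested on simulated data: of 100 genes changed 2-fold, 68 were recovered for diet at 24 weeks, 70 for ResKCs against CLEC4F- macs and 53 against moKCs. The headers name samples in 2 schemes, one used by 22 samples and another by 13, and all WD 12-week and SD 24-week samples carry the former.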

Additional observations from a re-analysis of the deposited data

Results flagged for a closer look

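Bmpr1a in replicate 4 of the WD ResKCs at 24 weeks lay apart from the other 5 samples of its group, at 17.9 CPM against 32.1 to 39.98 CPM. On the log2 CPM scale its gap to the nearest sample was 0.726 of the group's range, above the 95% critical value of Dixon's test. Of 60 groups of member values screened, this was the 1 past that value, and chance passes about 1 in 20 groups. The same sample was the lowest of its group in Timd4 (547 CPM), Skil (122 CPM), Eng (25.1 CPM), Acvrl1 (178 CPM) and Smad6 (51.6 CPM). It was also lowest in the endothelial sum (886 CPM). Without this sample the Bmpr1a differences from CLEC4F- macs and moKCs still passed.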

How the results depend on the processing

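For the members, 945 of 960 results under 12 other settings (the fold limit, which changes the rule for a call, left aside) and 1052 of 1060 with a sample left out kept their direction and their side of the threshold. Against 0 members called for diet at 24 weeks, DESeq2 called 1 (Skil), a fit of only the groups compared 2 (Skil and Smad7), the replicate block 1 (Skil) and the hepatocyte covariate 1 (Eng, -1.20). Against 4 for WD ResKCs and CLEC4F- macs, a fold limit of 1 on the log2 scale left 1 (Bmpr1a). Against 3 for moKCs and CLEC4F- macs, that limit left 0, library size alone 1 (losing Smad1 and Smad6) and only the groups compared 1 (losing Acvrl1 and Smad1). For WD ResKCs and moKCs the naming scheme covariate gave 2 against 1, adding Skil (-0.36, edgeR adjusted p = 0.0375). For WD ResKCs at 24 against 12 weeks the endothelial covariate gave 1 against 0 (Eng, 0.28), as did its version with 12 markers (0.30). Eng between moKCs and CLEC4F- macs turned from 0.26 to -0.29 with the endothelial covariate. Leaving out 1 sample gave 0 to 1 calls for diet at 24 weeks, 1 to 3 for moKCs against CLEC4F- macs, 4 in every fit for WD ResKCs against CLEC4F- macs, 1 in every fit against moKCs and 0 in every fit of the other comparisons. The cause was not tested.

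Same-numbered samples were not paired by the labels, and correlations of their deviations ran from -0.36 to 0.26, with no comparison where every pair was over 0.1. Between WD ResKCs and CLEC4F- macs these r ran from 0.02 to 0.26, with a mean of 0.12. There, 5 of 6 ResKC samples were closest to the CLEC4F- sample of their own number. With the replicate block Skil was at -0.39 for diet at 24 weeks (edgeR adjusted p = 0.0245), and no other count of members called moved by over 1.5 times. For the genes of the wider list that the naming rule picked, which do not include Bmp2, Bmp6 and Gdf2, 721 of 768 results kept their call under the same 12 settings and 770 of 820 with a sample left out. Counts below 3 per sample limit Smad9 and Tgfb2.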
